A study of Drosophila melanogaster with 36 samples.

Results

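The nuclear-encoded subunits of oxidative phosphorylation were followed through all RNA-Seq libraries of a study on Drosophila S3 cells, a line from embryos. They were taken from the deposited read counts by their current FlyBase symbols, which begin with ND-, Sdh, UQCR-, COX and a digit, or ATPsyn. Of the 88 genes with such a name, 63 had a mean of at least 5 CPM (counts scaled to the size of the library) over the 36 libraries and are described here, out of 17142 genes counted and 6877 genes that reached this level. These 63 members are 32 genes of complex I, 5 of complex II, 6 of complex III, 8 of complex IV and 12 of complex V. All but Sdhaf3, an assembly factor of complex II that the rule took by its name, encode subunits. The 25 other names stayed under 5 CPM, and 9 of them had 0 reads in all libraries. Nearly all of these are copies marked by an L at the end of the name. The members are spread over the genome, with 11 genes on chromosome arm 2L, 11 on 2R, 13 on 3L, 15 on 3R, 2 on chromosome 4 and 11 on X.

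The study asked what small molecules that prevent lipid droplets from forming do to cells fed with oleic acid (OA). All 36 libraries were made from polyadenylated RNA of S3 cells after 4 h, and the kit kept the strand. Cells without DMSO were left unfed (noOA, 6 libraries) or fed with 200 µM OA (OA, 6 libraries). All other cells received 0.1% DMSO, and each of their 8 groups had 3 libraries. Unfed control cells are called vehicle noOA and control cells with 200 µM OA are called vehicle OA. The remaining 6 groups were fed with 200 µM OA and received 1 µM of one derivative of 3 chemotypes, one active and one inactive on lipid storage for each. CT1, with a tetrahydroindazole core, was given as active THI-4 or inactive THI-68. CT2, a thienopyrrole, was given as active TPE-69 or inactive TPE-67, and CT3, an arylureido compound, as active AU-6 or inactive AU-73. Every library comes from 1 cell line, and no source used here says whether the libraries of a group came from separate cultures or days, so p-values measure only the spread between these libraries.

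Oxidative phosphorylation transfers electrons from NADH through complex I and from succinate through complex II to coenzyme Q, then through complex III and cytochrome c to complex IV, which reduces oxygen. Complexes I, III and IV pump protons across the inner mitochondrial membrane, and complex V, the ATP synthase, lets them flow back and makes ATP. Complex II is encoded in the nucleus alone, whereas the other complexes join nuclear subunits with a few made from mitochondrial DNA.

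Total counts ranged from 1208200 to 9548314 per library, with a median of 5005547. The 18S rRNA gene took 34.7% to 51.5% of them and was left out, which left 709547 to 6053034 counts. Each library had a mean Spearman's rho of 0.973 to 0.989 with the others. Vehicle noOA replicate 1 and vehicle OA replicate 3, the shallowest libraries with 714517 and 709547 counts, stayed out of all tests because the study's own table of values does not hold them, and their values are still shown. Abd-B, a Hox gene of posterior segments, averaged 520 CPM and abd-A averaged 28.9 CPM. The blood cell genes srp, eater, Hml and crq averaged 1325, 288, 264 and 72.3 CPM, while NimC1 was at 0.249 CPM. Of the muscle markers Mlc2 averaged 393 CPM, Mhc 0.745 CPM and Act88F 0.036 CPM, and of the neuron markers elav averaged 36.5 CPM, Syt1 0.878 CPM and nSyb 0.699 CPM. Of the testis markers betaTub85D averaged 10.8 CPM and aly, can and bam at most 0.820 CPM. Of the fat body markers Yp1 averaged 2.56 CPM and reached 43.0 CPM in 1 library, and Lsp2 and Fbp1 averaged 0.058 and 0.051 CPM. In bulk RNA, fewer cells that express a gene and less of its RNA per cell cannot be told apart.

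Levels of different genes are compared here only in FPKM, which divide by the length of the transcript. A gap in FPKM can exceed that in reads per base of exon. In complex I, ND-MLRQ had 190 CPM over 538 bases and ND-39 417 CPM over 1616 bases, but 764 and 180 FPKM. How far FPKM favour short transcripts was not tested. Over 36 libraries the 62 subunits had a median of 100 FPKM and spanned 64.1-fold, from UQCR-11 at 24.8 FPKM ± 5.66 (SD, n = 36) to ATPsynC at 1588 FPKM ± 309. Complexes IV and V stood highest. The median subunit had 66.9 FPKM in complex I, 85.3 in complex II, 128 in complex III, 290 in complex IV and 258 in complex V.

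Complex I subunits lay close together except for ND-MLRQ, the homologue of a small mammalian subunit that has been assigned to complex I and to complex IV. It had 764 FPKM ± 112, while the next, ND-39, had 180 FPKM ± 41.4 and the lowest, ND-AGGG, 29.2 FPKM ± 8.46. Of the core subunits named here, only ND-49 was above the median of the complex. ND-51, which binds NADH, had 58.4 FPKM ± 12.9, the iron-sulphur protein ND-75 had 48.6 FPKM ± 11.97, ND-30 had 51.0 FPKM ± 11.2 and ND-49, next to the quinone site, 90.6 FPKM ± 15.6.

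In complex II the flavoprotein SdhA was the lowest at 28.8 FPKM ± 6.79. Its iron-sulphur partner SdhB had 92.3 FPKM ± 23.2, and the membrane anchors SdhC and SdhD had 96.2 FPKM ± 18.7 and 78.2 FPKM ± 17.6. Sdhaf3 stood at 14.8 FPKM ± 5.00. In complex III the small subunit UQCR-Q reached 812 FPKM ± 168, above the core proteins UQCR-C1 at 154 FPKM ± 36.9 and UQCR-C2 at 101 FPKM ± 25.4. As for ND-MLRQ, the gap was smaller in reads per base of exon. UQCR-Q had 381 CPM over 975 bases and UQCR-C1 450 CPM over 1632 bases.

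Complex IV was the most even of the complexes with more than 4 subunits, with a 3.30-fold range from COX5B at 137 FPKM ± 30.8 to COX7A at 452 FPKM ± 84.9. COX8, COX6B, COX5A and COX4 lay between them, at 413, 304, 276 and 272 FPKM. Complex V held 2 of the 4 highest subunits. These were ATPsynC, whose protein forms the proton-carrying ring in many copies per enzyme, and ATPsynbeta, the catalytic subunit, at 704 FPKM ± 114. The central stalk subunit ATPsyngamma had 151 FPKM ± 36.3, ATPsynO at the top of the peripheral stalk 178 FPKM ± 41.5, the peripheral stalk subunit ATPsynB 150 FPKM ± 32.9 and ATPsynepsilonL, the lowest of the complex, 70.1 FPKM ± 14.8.

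**Figure D1:**
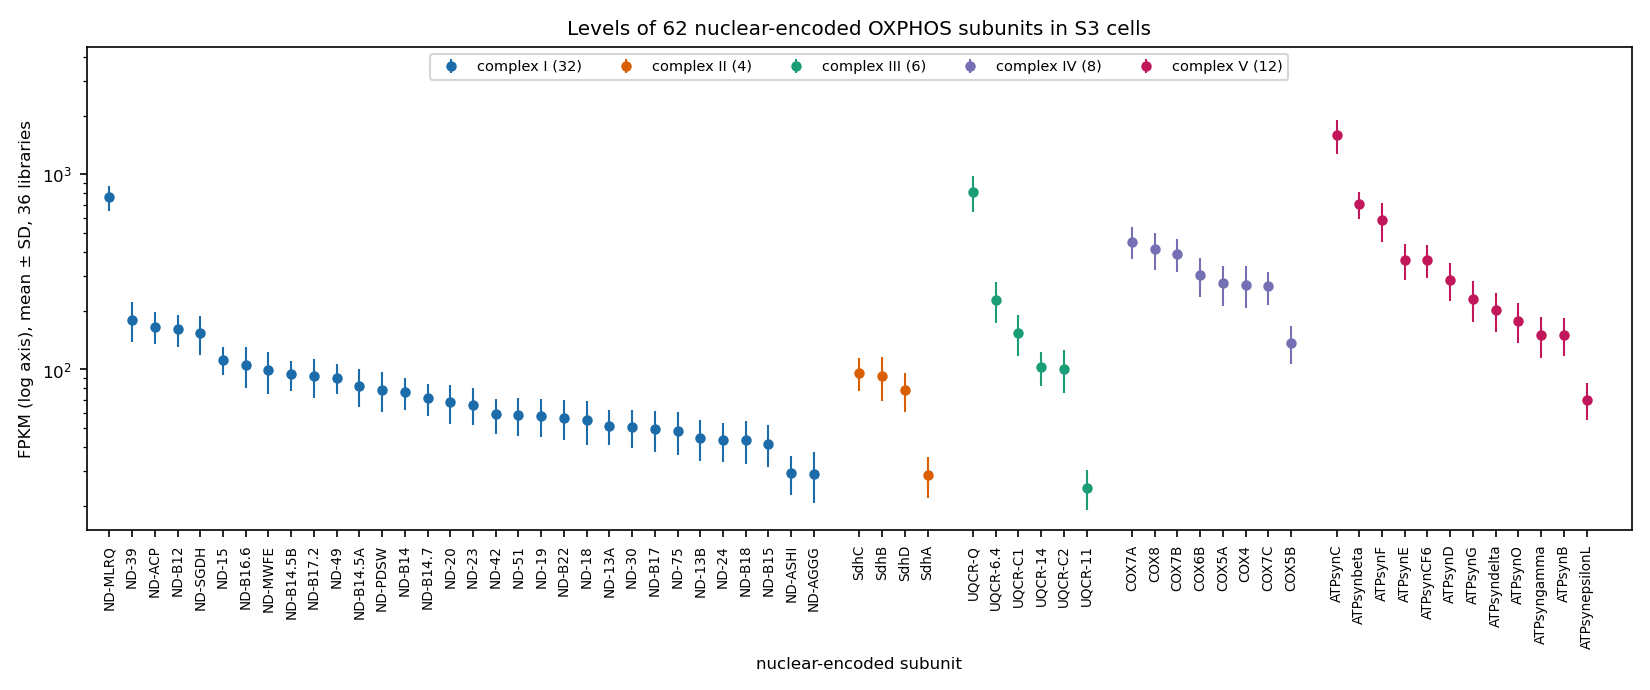
Mean FPKM (log axis) of each nuclear-encoded subunit over 36 libraries, ordered by complex and by level, with bars of ± 1 SD. ATPsynC at 1588 FPKM, UQCR-Q at 812 FPKM and ND-MLRQ at 764 FPKM stand above the others of their complexes, and the lowest subunit is UQCR-11 at 24.8 FPKM.

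The summed reads of the subunits were divided among the complexes in nearly the same way in all libraries. Complex V took 46.4% ± 0.851 (SD, n = 36 libraries) of the summed CPM of the subunits and ranged from 43.6% to 48.2%. Complex I took 24.4% ± 0.413, complex IV 14.1% ± 0.328, complex III 10.6% ± 0.555 and complex II 4.47% ± 0.173. CPM were scaled by the TMM factors of edgeR, which bring libraries to a common scale. These sums are not divided by length, so they describe where the reads lay and not how many transcripts each complex had.

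Together the 63 members reached 11218 CPM ± 528 (SD, n = 6) in noOA and 10721 CPM ± 648 (n = 6) in OA. The sum was 11946 CPM ± 13.3 (n = 3, as in each of the following groups) in vehicle noOA and 11226 CPM ± 594 in vehicle OA. Both vehicle means include the library left out of the tests. In vehicle OA that library, replicate 3, had 11910 CPM, and replicates 1 and 2 had 10837 and 10931 CPM. The place of vehicle OA in the order of groups therefore rests on replicate 3. With active and inactive CT1 the sum was 10922 CPM ± 299 and 10946 CPM ± 363. With active and inactive CT2 it was 10802 CPM ± 238 and 11462 CPM ± 896, and with CT3 11447 CPM ± 217 and 11606 CPM ± 242. Vehicle noOA was the highest and OA the lowest of the 10 groups. The 3 libraries of vehicle noOA lay above the 3 of inactive CT3, the next in order, and all other neighbours differed by less than their spread. By complex, complex I had its highest mean in vehicle noOA, at 2906 CPM ± 14.9, and its lowest in OA, at 2614 CPM ± 168. Complex V had its highest mean in vehicle noOA too, at 5562 CPM ± 45.2, and its lowest with active CT1, at 4996 CPM ± 123. The highest mean of complex II, 536 CPM ± 21.6, and of complex III, 1314 CPM ± 68.4, was in inactive CT3, and that of complex IV, 1692 CPM ± 25.3, again in vehicle noOA.

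**Figure D2:**
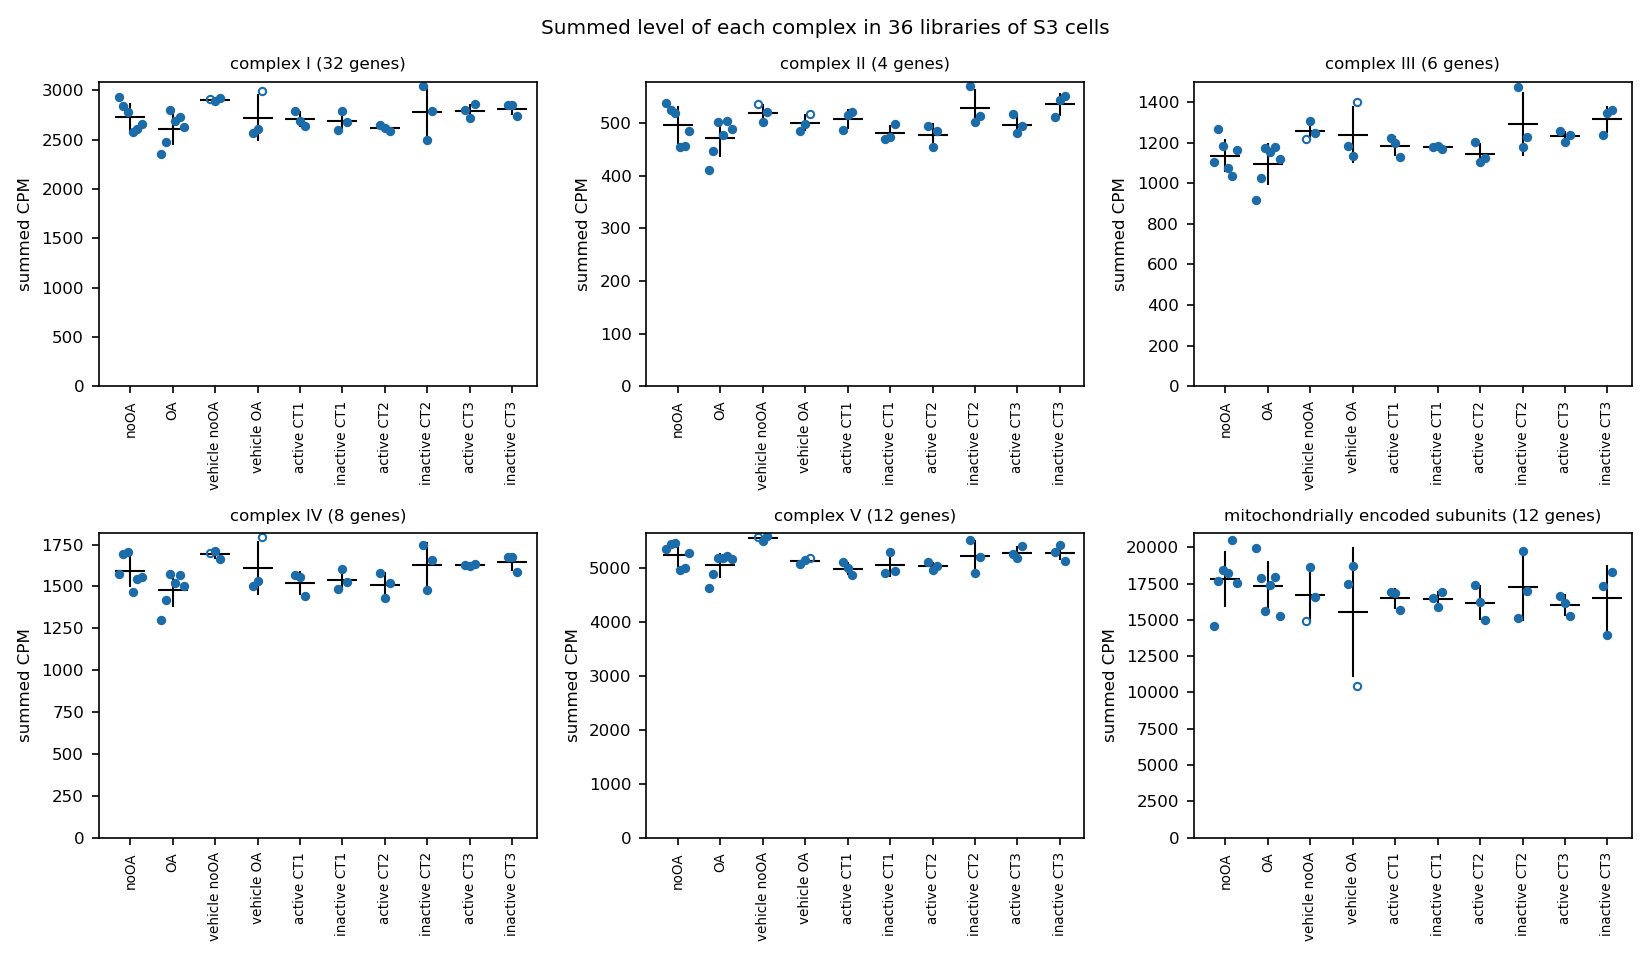
Summed CPM of each complex and of 12 mitochondrially encoded subunits in 36 libraries by group, with points for libraries, bars for the mean ± 1 SD and open circles for the 2 libraries left out of the tests. The complexes stay within narrow bands, as in complex V between 4996 CPM with active CT1 and 5562 CPM in vehicle noOA.

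Most members changed little between the 10 groups, whose means include the 2 libraries left out of the tests. The highest group mean of a gene divided by its lowest was 1.22-fold in the median member and ran from 1.10-fold for ND-51 to 1.68-fold for Sdhaf3. The same ratio was 1.30-fold in the median gene with at least 5 CPM. Of the 63 members, 3 reached 1.5-fold (4.76%) and 0 reached 2-fold. Among the 6877 genes, 1568 reached 1.5-fold (22.8%) and 414 reached 2-fold (6.02%). The median coefficient of variation within groups was 9.78% for the members and 9.55% for these genes.

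The 3 members over 1.5-fold were among the lowest in level. Sdhaf3 had group means between 4.67 CPM with active CT1 and 7.86 CPM in vehicle noOA. UQCR-11, a subunit of complex III, ranged from 6.33 CPM with inactive CT1 to 10.3 CPM in vehicle noOA, and ND-AGGG from 9.29 CPM with inactive CT2 to 14.1 CPM in vehicle OA. Reads of these genes in single libraries were as few as 4, 5 and 9. At the other end, ND-51 stayed between 122 CPM with inactive CT1 and 134 CPM with inactive CT2, ATPsynC between 1891 CPM with active CT1 and 2152 CPM in vehicle noOA, and ND-75 between 185 CPM in OA and 212 CPM with inactive CT3.

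Of the remaining core subunits, UQCR-C1 ranged 1.16-fold over the group means, UQCR-C2 1.20-fold, SdhA 1.17-fold, SdhB 1.16-fold, ATPsynbeta 1.17-fold and ATPsyngamma 1.18-fold. Within complex IV, COX6B ranged 1.18-fold, COX4 1.24-fold, COX8 1.38-fold and COX5B 1.38-fold. UQCR-Q ranged 1.37-fold, from 327 CPM in OA to 447 CPM with inactive CT3.

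The complexes also moved together from library to library. Pearson's r between the summed CPM of any pair of complexes lay between 0.665 for complexes III and V and 0.902 for complexes I and IV over 36 libraries. Against the sum of 12 mitochondrially encoded subunits r was negative for each of the 5 complexes, from -0.300 for complex V to -0.571 for complex I. The next correlations use CPM without TMM factors. The mean log2 CPM of the members followed the summed CPM of 87 ribosomal protein genes, with Pearson's r of 0.925 and Spearman's rho of 0.925. Against log2 total counts without 18S it gave r of -0.396 and rho of -0.303. Against the mitochondrially encoded sum, here with mt:ATPase8 included, it gave r of -0.534 and rho of -0.442. All of these measures come from the same libraries and share their depth and scaling, and the correlations are given as a description.

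The members are short genes, with a median exon length of 853 bases, where the median tested gene had 2104 bases. Of the 63 members 42 had at most 1000 bases, as had 1056 of the 7343 tested genes with a known length. The median change of these short genes is therefore given beside that of the members in the comparisons with OA, derivatives or DMSO.

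Oleic acid was tested first among the cells with DMSO. All 63 members were among the 7522 genes tested with edgeR over 22 libraries, in which the replicates with DMSO share 1 estimate of the spread, and a gene is called at an adjusted p under 0.05 over all genes tested. Between vehicle OA (2 libraries in the test) and vehicle noOA (2 libraries), 3 of 63 members fell and 0 rose. Over all genes 6.45% were called in either direction and 3.47% were lower. The 3 members were ATPsynB, ND-B12, a small accessory subunit of complex I, and COX7C, a small subunit of complex IV. By sign, 55 members were lower and 8 higher with OA, at a median log2 fold change of -0.16 against -0.0039 for all genes and -0.15 for short genes. The median was -0.16 in complex I, -0.08 in complex II, -0.17 in complex III, -0.17 in complex IV and -0.16 in complex V. The 95% interval of 40 of the 63 members lay within 0.5 log2 units of 0.

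ND-B12 measured 68.9, 57.4 and 63.4 CPM in the vehicle noOA libraries and 45.0, 40.9 and 55.8 CPM in those of vehicle OA, including the libraries left out, and all values with OA lay below all values without. Its log2 fold change was -0.50 (SE 0.16, 95% interval -0.82 to -0.19, adjusted p = 0.0438 by edgeR). COX7C measured 85.8, 107 and 105 CPM in vehicle noOA and 69.9, 83.9 and 116 CPM in vehicle OA. The groups did not overlap over the 4 libraries tested, but vehicle OA replicate 3, which was left out, was the highest of all 6. The log2 fold change was -0.45 (SE 0.14, 95% interval -0.73 to -0.17, adjusted p = 0.0421 by edgeR). ATPsynB measured 174, 199 and 196 CPM in vehicle noOA and 163, 164 and 202 CPM in vehicle OA, again with the highest value in the library left out. Its log2 fold change was -0.27 (SE 0.08, 95% interval -0.43 to -0.11, adjusted p = 0.0289 by edgeR). None of the 3 was called by DESeq2 or by limma on log2(FPKM + 1), and none was called when any 1 of the 4 libraries was left out.

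Without DMSO, 6 libraries stood on each side and the changes were smaller. Between OA and noOA 3 of 63 members fell and 0 rose, in a test over 16 libraries and 7546 genes in which 13.6% of all genes were called and 6.93% were lower. The 3 members were ND-MLRQ, COX5A, a nuclear subunit of complex IV, and COX7A, another. In sign 58 members were lower and 5 higher, and the median log2 fold change was -0.07, where it was -0.0068 for all genes and -0.07 for short genes. All 63 intervals lay within 0.5 log2 units of 0. By complex the median was -0.07 for complex I, -0.08 for complex II, -0.06 for complex III, -0.11 for complex IV and -0.07 for complex V, in which all 12 genes were lower.

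ND-MLRQ ranged from 200 to 224 CPM in noOA, with a median of 209 CPM, and from 173 to 207 CPM in OA, with a median of 186 CPM. Its log2 fold change was -0.16 (SE 0.05, adjusted p = 0.0262 by edgeR). COX5A ranged from 266 to 321 CPM in noOA (median 302) and from 245 to 289 CPM in OA (median 267). Its log2 fold change was -0.16 (SE 0.05, adjusted p = 0.0409 by edgeR). COX7A ranged from 245 to 287 CPM in noOA (median 273) and from 219 to 268 CPM in OA (median 248), with a log2 fold change of -0.14 (SE 0.05, adjusted p = 0.0443 by edgeR). The groups overlapped for all 3 genes. The count of 3 ran from 0 to 6 members when each library was left out in turn, with 6 without noOA replicate 4 and 0 without noOA replicate 3, OA replicate 2 or OA replicate 6. The share of all genes called without each library was not counted, so these counts describe the members only. On FPKM the changes of COX5A and COX7A were 0.08 and 0.07, on a scale where the median of all genes was 0.15.

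The members called with DMSO and without were different. ND-B12 had -0.21 without DMSO (adjusted p = 0.0908 by edgeR), and COX5A had -0.14 with DMSO (adjusted p = 0.388 by edgeR). The effect of OA with DMSO was then set against that without, by a contrast added after both results had been seen. It called 0 of 63 members and 0% of all genes with edgeR. DESeq2 and limma called 0 members as well, given here without the share of all genes that they called. The unadjusted p was under 0.05 for 2 members, COX7C and UQCR-6.4, and for 290 of 7546 genes.

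**Figure D3:**
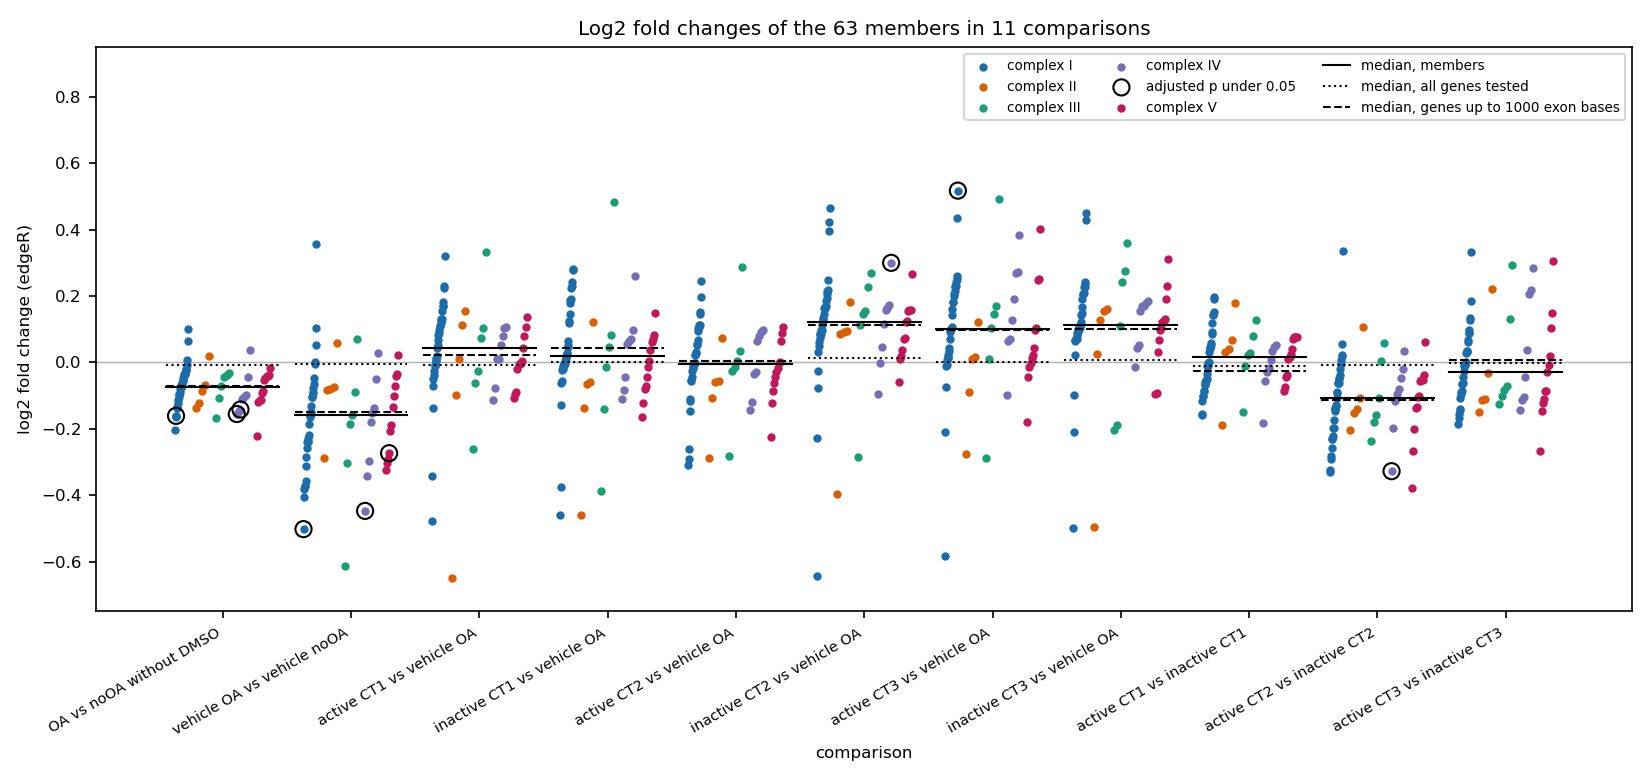
Log2 fold changes of the 63 members in 11 comparisons (edgeR, log2 units on the vertical axis), with 1 point per gene coloured by complex, rings for members called, and lines for the medians of members, of all genes tested and of short genes. Most points lie within 0.5 log2 units of 0, and the members' median is -0.16 for vehicle OA against vehicle noOA and between -0.01 and 0.12 for the 6 derivatives against vehicle OA.

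Each of the 6 derivatives was compared with vehicle OA at the same dose and time. The same 2 vehicle OA libraries serve all 6 comparisons, so any error in them enters each. With active CT1, where 12.1% of all genes were called, 0 of 63 members were called, and 40 were higher and 23 lower at a median log2 fold change of 0.04, against 0.02 for short genes. With active CT2, where 2.03% of all genes were called, 0 members were called and the median was -0.01, against 0.0030 for short genes. With active CT3, where 4.87% were called, 1 member was called, ND-B12, and the median was 0.10, the same as for short genes. With inactive CT1 0 members and 0% of all genes were called, at a median of 0.02, against 0.04 for short genes. With inactive CT2 1 member was called, COX5A, and 0.877% of all genes, at a median of 0.12, and with inactive CT3 0 members and 0.0133% of all genes, at a median of 0.11. Short genes had a median of 0.11 and 0.10 in these last comparisons.

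In the comparisons with 0 calls by edgeR, DESeq2 and limma on log2(FPKM + 1) called 0 members too. Here and in the paragraphs below, counts by DESeq2 and limma are given without the share of all genes that they called. They describe the members only and cannot show whether these tools call few genes of any kind. The unadjusted p was under 0.05 for 2 members for active CT1 and 4 for its inactive partner, 0 for active CT2, and 12 for inactive CT3. Over all 7522 genes tested this held for 1710, 364, 723 and 571 genes in the same order. The 95% interval lay within 0.5 log2 units of 0 for 55 members for active and 51 for inactive CT1, for 53 and 50 in the same order for CT2, and for 45 and 50 for CT3. By complex, the median with active CT1 was 0.07 in complex I, 0.01 in complex II, 0.02 in complex III, 0.03 in complex IV and -0.0027 in complex V. With active CT3 it was 0.10 in complex I, 0.01 in complex II, 0.13 in complex III, 0.16 in complex IV and 0.03 in complex V.

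ND-B12 measured 62.2, 62.6 and 59.1 CPM with active CT3, all above the 3 vehicle OA libraries at 45.0, 40.9 and 55.8 CPM. Its log2 fold change was 0.52 (SE 0.15, 95% interval 0.22 to 0.81, adjusted p = 0.0280 by edgeR, or 0.0411 when the 6 comparisons are adjusted together). Inactive CT3 gave 66.0, 61.9 and 38.7 CPM and a log2 fold change of 0.45 (SE 0.15, adjusted p = 0.427 by edgeR). Inactive CT2 gave 58.2, 52.0 and 61.3 CPM and 0.47 (SE 0.15, adjusted p = 0.160 by edgeR). With active CT1 and active CT2 the log2 fold changes were 0.22 and 0.25 (adjusted p of 0.391 and 0.678 by edgeR). All of these changes, and the fall of ND-B12 with OA in DMSO, rest on the same 2 vehicle OA libraries. Active against inactive CT3 differed in ND-B12 by 0.07 (95% interval -0.18 to 0.31). The call with active CT3 was lost when any 1 of its 5 libraries was left out, with an adjusted p of 0.0594 to 0.372, and DESeq2 gave 0.0572.

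COX5A was the member most often called. Apart from the call with OA without DMSO, its calls all involve the same 3 inactive CT2 libraries. With inactive CT2 it measured 362, 297 and 332 CPM, against 285, 259 and 279 CPM in vehicle OA, and all 3 libraries were above all of vehicle OA. Its log2 fold change was 0.30 (SE 0.08, 95% interval 0.14 to 0.46, adjusted p = 0.0481 by edgeR, or 0.0192 when the 6 comparisons are adjusted together). Without vehicle OA replicate 2 it was 0.23 (adjusted p = 0.578), without vehicle OA replicate 1 0.36 (adjusted p = 0.141), and it was also not called without inactive CT2 replicate 1 or 3. With active CT2 the gene measured 265, 254 and 273 CPM, of which 254 CPM was below and the others within the range of vehicle OA, at a log2 fold change of -0.03 (95% interval -0.18 to 0.13).

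Active and inactive derivatives of a chemotype were compared with each other in 3 pairs, which do not involve the vehicle libraries. For CT1 0 of 63 members were called where 12.7% of all genes were, with 35 higher and 28 lower with the active derivative, a median of 0.02 (-0.02 for short genes) and 59 intervals within 0.5 log2 units of 0. For CT3 0 members were called where 3.68% of all genes were, with a median of -0.03 (0.0077 for short genes) and 56 intervals within these bounds. DESeq2 and limma called 0 members in both, and the unadjusted p was under 0.05 for 1 member of CT1 and 6 of CT3, and for 1740 and 1013 of all 7522 genes. For CT2 1 member was lower with the active derivative and 0 were higher, where 2.49% of all genes were called. In this pair 53 members were lower and 10 higher, at a median of -0.11, the same as for short genes, and 14 had an unadjusted p under 0.05, as had 1168 of all 7522 genes. The CT2 medians ran from -0.09 in complex IV to -0.14 in complex II.

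The member called for CT2 was COX5A, with 265, 254 and 273 CPM for the active and 362, 297 and 332 CPM for the inactive derivative. All 3 libraries with active TPE-69 lay below all 3 with inactive TPE-67. The log2 fold change was -0.33 (SE 0.07, 95% interval -0.47 to -0.19, adjusted p = 0.00350 by edgeR, or 9.22e-04 over the 3 pairs together). It was called without each of the 6 libraries in turn, at -0.38 to -0.26, and by DESeq2, but not by limma on FPKM, where it was -0.23 (adjusted p = 0.615). For CT1 the libraries measured 285, 289 and 270 CPM with the active and 275, 300 and 281 CPM with the inactive derivative, at a log2 fold change of -0.02 (95% interval -0.15 to 0.12). For CT3 the libraries measured 279, 292 and 278 CPM and 317, 283 and 316 CPM, at -0.11 (95% interval -0.24 to 0.03).

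The inactive CT2 libraries were the most uneven of the groups with derivatives. Their members summed to 11462 CPM ± 896, and their ribosomal protein genes to 89270 CPM ± 9359, where active CT2 had 82294 CPM ± 2335 and vehicle OA 87444 CPM ± 8200. Without inactive CT2 replicate 2, 3 members were called between active and inactive CT2. The share of all genes called without that library was not counted. The part of this unevenness in the sign of the members was not tested.

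**Figure D4:**
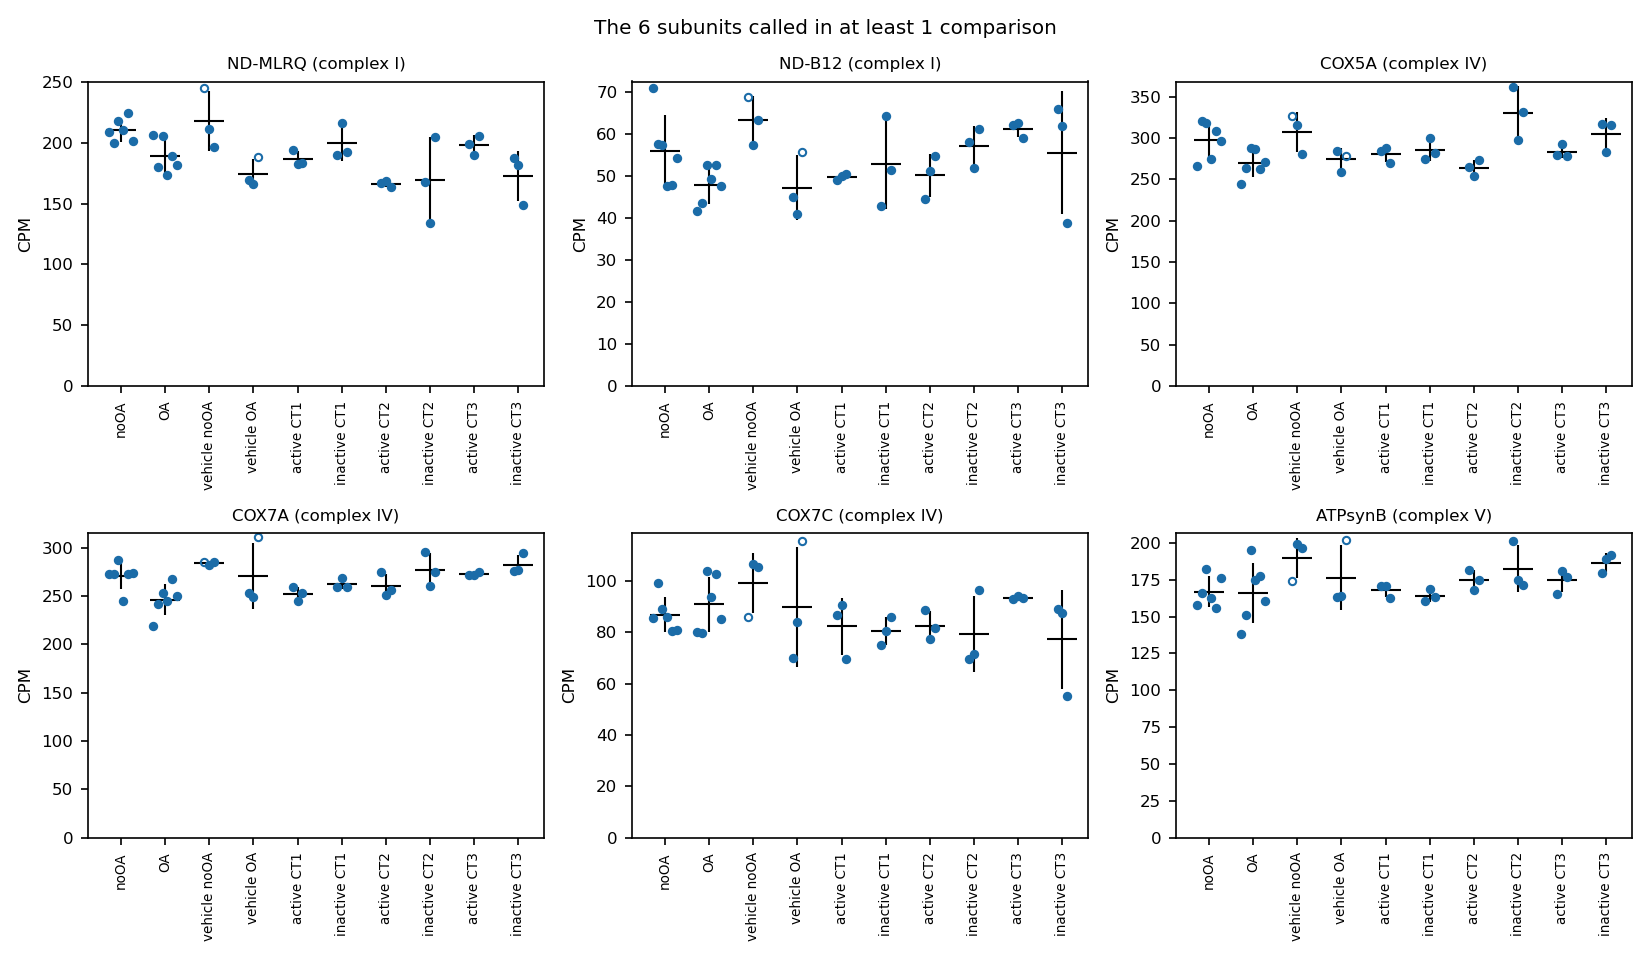
CPM of the 6 members called in at least 1 comparison in all 36 libraries by group, with points for libraries, bars for the mean ± 1 SD and open circles for the 2 libraries left out of the tests. COX5A has its lowest group mean with active CT2 (264 CPM) and its highest with inactive CT2 (330 CPM), and ND-B12 its lowest in vehicle OA (47.2 CPM).

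The difference between active and inactive derivative was also compared between chemotypes, again in 3 pairs. COX5A was the 1 member called between CT1 and CT2, where 7.68% of all genes were called. Active against inactive was -0.33 log2 units for CT2 and less negative for CT1, by 0.31 (SE 0.10, 95% interval 0.12 to 0.51, adjusted p = 0.0347 by edgeR, or 0.0644 over the 3 pairs together). The count of members ran from 0 to 2 when each of the 12 libraries was left out, and it was 0 without 8 of them. The share of all genes called without each of them was not counted. Between CT1 and CT3 0 members were called and 1.56% of all genes, and between CT3 and CT2 0 members and 0.838% of all genes. DESeq2 and limma called 0 members in these, with an unadjusted p under 0.05 for 3 and 5 members and for 830 and 742 of all 7522 genes.

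DMSO itself was compared in unfed and in fed cells. Between vehicle noOA and noOA 0 of 63 members and 0.0133% of all genes were called. The members' median was 0.08, against 0.04 for short genes, with 54 genes higher, 9 lower and 7 at an unadjusted p under 0.05, as were 479 of 7546 genes. Between vehicle OA and OA 0 members and 0% of all genes were called, at a median of 0.02 (-0.05 for short genes), with 10 members at an unadjusted p under 0.05, as were 391 of 7546 genes. DESeq2 and limma called 0 members in both, and 58 and 53 intervals lay within 0.5 log2 units of 0.

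Other genes of the same pathway were examined by 4 lists. The 7 genes with other names gave 0 calls in both OA comparisons. Among them were the ATP synthase subunit blw, the Rieske protein RFeSP and the cytochrome c gene Cyt-c-p. These 7 genes gave 1 call with active CT1, Cyt-c-p. The mitochondrially encoded subunits gave 0 calls with OA, of 12 tested with DMSO and 13 without, and, of 12 tested, 1 lower gene each with active CT1 and active CT3. The 8 regulators tested gave 1 higher gene in each OA comparison, srl. The 11 assembly factors tested, which include the member Sdhaf3, gave 1 higher gene in each OA comparison, Sdhaf4. Over all genes, OA called 6.45% with DMSO and 13.6% without, in either direction. Active CT1 and active CT3 called 12.1% and 4.87% against vehicle OA.

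Sdhaf4, called Sirup in FlyBase today, encodes an assembly factor that helps SdhA and SdhB of complex II to join. It showed the widest range of all listed genes, 11.6-fold over the group means, whereas SdhA, SdhB, SdhC and SdhD ranged from 1.16-fold to 1.23-fold. In unfed cells it measured 10.2 to 20.7 CPM without DMSO (median 16.4, n = 6) and 15.5, 19.8 and 20.7 CPM with DMSO. In fed cells it measured 43.0 to 59.1 CPM without DMSO (median 53.5, n = 6) and 35.0, 48.1 and 71.1 CPM with DMSO. No fed library overlapped with an unfed one, and the log2 fold change with OA was 1.67 without DMSO and 1.07 with DMSO (adjusted p of 5.58e-05 by edgeR for the latter).

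Each active derivative stood above vehicle OA in Sdhaf4, and all 3 were called by edgeR, DESeq2 and limma on log2(FPKM + 1). Active CT1 gave 205, 181 and 173 CPM and a log2 fold change of 2.14. Active CT3 gave 148, 136 and 134 CPM and 1.71, and active CT2 gave 110, 99.5 and 98.4 CPM and 1.28. Inactive CT2 gave 81.2, 75.9 and 74.9 CPM and 0.87 (adjusted p = 7.49e-05 by edgeR), inactive CT3 69.2, 67.3 and 55.2 CPM and 0.62 (adjusted p = 0.0803, or 0.00202 when the 6 comparisons are adjusted together), and inactive CT1 50.0, 60.5 and 52.4 CPM and 0.34 (adjusted p = 0.963). The highest vehicle OA library, which was left out of the tests, lay above all libraries of inactive CT1 and inactive CT3. The libraries of each active derivative were all above those of its inactive partner, by 1.804 log2 units for CT1, 1.08 for CT3 and 0.41 for CT2. The difference for CT1 was larger than that for CT2 by 1.39 (adjusted p = 4.80e-10 by edgeR) and than that for CT3 by 0.72 (adjusted p = 0.00131). The difference for CT3 was larger than that for CT2 by 0.67 (adjusted p = 0.00357). Under other settings or without single libraries, the call of inactive CT2 against vehicle OA was lost 3 times. That of active against inactive CT2 was lost 5 times.

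The subunits of complex II varied far less than Sdhaf4, but not all were level. SdhA had its highest group mean with active CT1, at 127 CPM, and its lowest in vehicle OA, at 108 CPM. With active CT1 SdhA measured 115, 128 and 139 CPM and in vehicle OA 115, 113 and 97.6 CPM. SdhB measured 222, 230 and 222 CPM with active CT1 and 218, 229 and 243 CPM in vehicle OA. Active CT1 against vehicle OA gave log2 fold changes of 0.15 for SdhA, 0.0091 for SdhB, -0.098 for SdhC and 0.11 for SdhD. No subunit of complex II was called in any of the comparisons. Over all genes 12.1% were called with active CT1 against vehicle OA. Among so few genes, the lack of calls does not show that the subunits stayed unchanged.

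**Figure D5:**
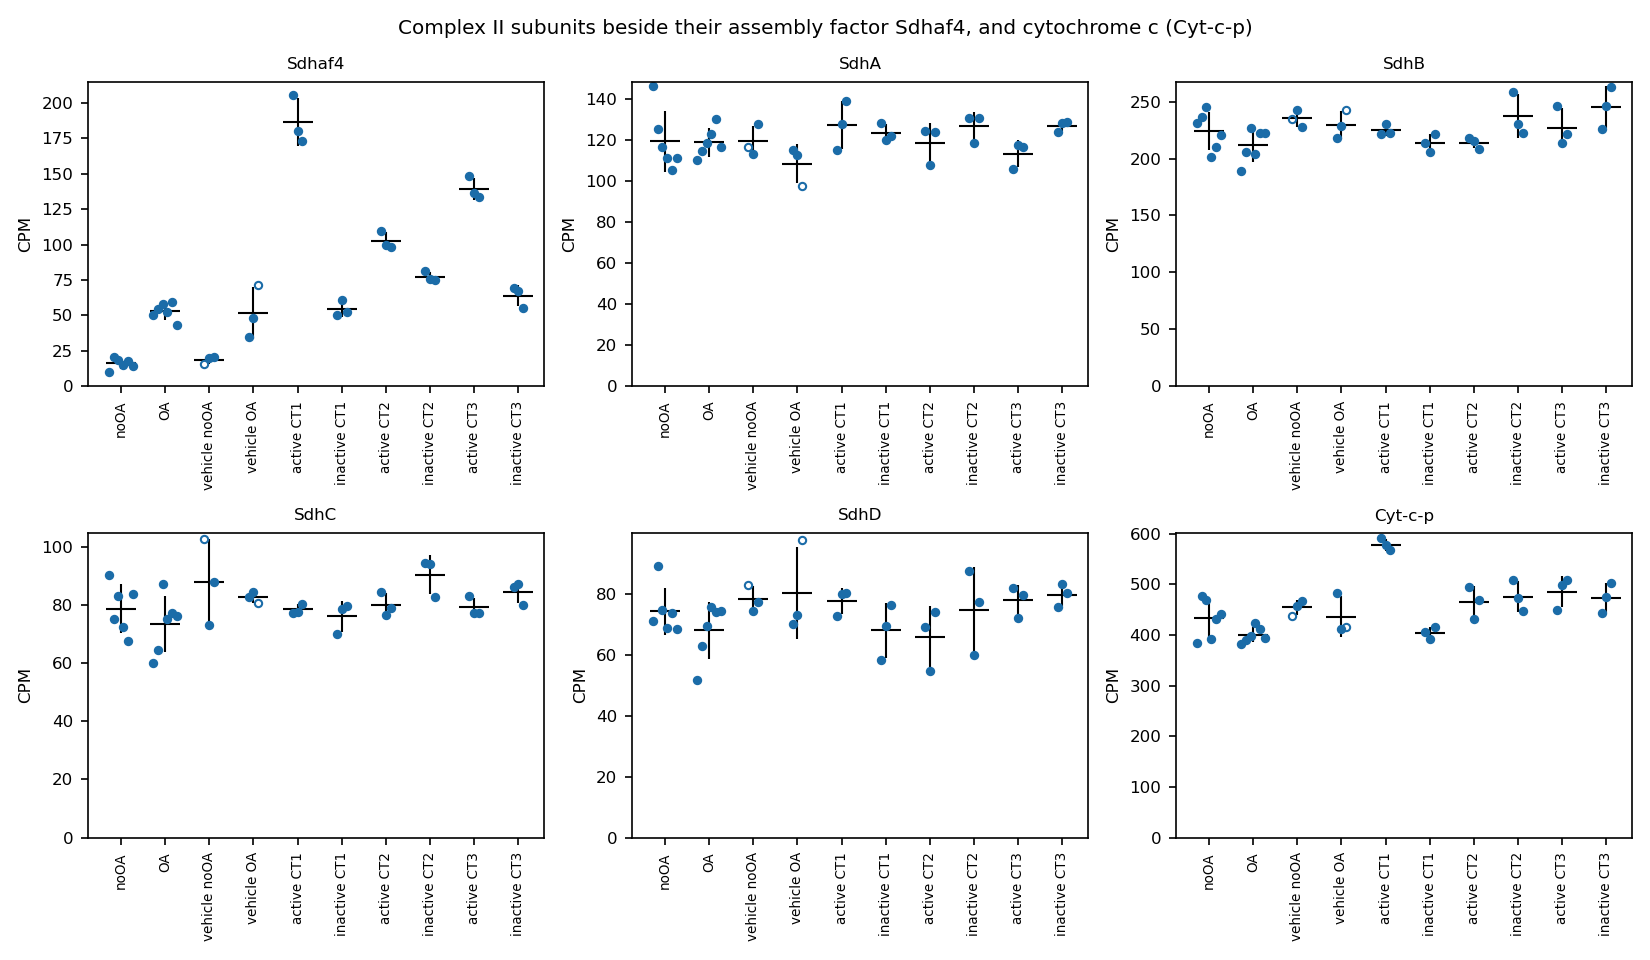
CPM of SdhA, SdhB, SdhC, SdhD, their assembly factor Sdhaf4 and cytochrome c (Cyt-c-p) in 36 libraries by group, with points for libraries, bars for the mean ± 1 SD and open circles for the 2 libraries left out of the tests. Sdhaf4 runs from 16.1 CPM in noOA to 186 CPM with active CT1, and the 4 subunits range at most 1.23-fold over the group means.

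Cyt-c-p encodes cytochrome c, the carrier between complexes III and IV. It measured 591, 577 and 568 CPM with active CT1, 406, 393 and 415 CPM with inactive CT1 and 483, 411 and 415 CPM in vehicle OA. All 3 libraries with active CT1 were above every other library. The log2 fold change was 0.51 against inactive CT1 (adjusted p = 1.34e-07 by edgeR) and 0.38 against vehicle OA (adjusted p = 2.75e-04), which was 0.26 (adjusted p = 0.107) without vehicle OA replicate 2. The difference between active and inactive derivative was larger for CT1 than for CT2 by 0.54 and than for CT3 by 0.47 log2 units. With active CT1, 0 of the 6 members of complex III and 0 of the 8 of complex IV were called, against vehicle OA or inactive CT1. Over all genes 12.1% and 12.7% were called in these comparisons. Among so few genes, 0 calls do not set Cyt-c-p apart from these complexes.

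The regulator srl, the fly homologue of the coactivator PGC-1, was higher with OA, by 0.27 log2 units with DMSO (adjusted p = 0.0295 by edgeR) and by 0.22 without (adjusted p = 0.00109). It ranged from 178 to 206 CPM in noOA (median 186) and from 203 to 238 CPM in OA (median 220). The groups overlapped by 1 library of each. The call with DMSO was lost when any of its 4 libraries was left out. srl was also higher with active than with inactive CT2, by 0.24 (adjusted p = 0.0359 by edgeR), a call that was kept without inactive CT2 replicate 2 and lost without any other of the 6 libraries.

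Cox17, a copper chaperone for complex IV, was higher with active CT1 by 0.61 (adjusted p = 0.0121 by edgeR) and with active CT3 by 0.65 (adjusted p = 0.0219). It measured 83.3, 77.9 and 66.5 CPM with active CT1, 91.2, 68.2 and 78.6 CPM with active CT3, and 47.0, 52.5 and 79.5 CPM in vehicle OA. The highest vehicle library is the one left out of the test, and DESeq2 and limma did not call the gene in either comparison. For active CT1 the adjusted p was 0.122 when vehicle OA replicate 1 was left out and 0.0865 when replicate 2 was, and for active CT3 these were 0.200 and 0.137.

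Among the mitochondrially encoded subunits mt:ND4 was lower with active CT1, at a log2 fold change of -0.35 (adjusted p = 0.0379 by edgeR), and mt:Cyt-b with active CT3, at -0.31 (adjusted p = 0.0398). mt:ND4 measured 398, 413 and 381 CPM with active CT1 and 525, 492 and 144 CPM in vehicle OA. mt:Cyt-b measured 2039, 2028 and 1993 CPM with active CT3 and 2500, 2529 and 723 CPM in vehicle OA. For both genes the lowest library of all 36 was vehicle OA replicate 3, which is not in the tests. With all libraries in the test the changes were -0.07 for mt:ND4 and 0.05 for mt:Cyt-b, and neither was called when any of the 5 libraries was left out. Within a group of 6 the spread was wide too, with mt:Cyt-b in noOA between 1874 and 2806 CPM.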

How the data were processed

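Per the submitters' processing notes and the study's methods, reads were called with CASAVA 1.8.2, aligned by the authors to the BDGP R5 genome with TopHat2 2.0.10 (which runs Bowtie) and handled with SAMtools 0.1.19. The authors deposited counts per gene from HTSeq 0.5.4p1, whole numbers without normalization, on FlyBase 5.57, and FPKM values from Cufflinks 2.1.1, which divide by library and transcript length. Cuffdiff 2.1.1 is also listed. The 18S rRNA gene was left out here. Counts were tested with edgeR 4.0.16 in R 4.3.3 (TMM factors, filterByExpr by group, quasi-likelihood F test, Benjamini-Hochberg over all genes tested, threshold 0.05), in a fit of 22 libraries with DMSO and another of 16 libraries for OA without DMSO and for DMSO itself. Standard errors follow from the F statistic, and exon lengths come from a BDGP6 annotation matched by gene identifier. The 2 libraries left out were found by matching the deposited FPKM with the study's table, and the table also set the replicates used.

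The alternatives were RLE factors, plain library totals, DESeq2 1.42.0, no filter on low counts, all libraries, the replicate number as a block, limma 3.58.1 on log2(FPKM + 1) or log2(FPKM + 0.1), with a filter and without, leaving out each library, and, added after seeing the data, removal of a length trend per library. Members and lists were chosen with earlier results of these data known. Named genes are core subunits, members called, the highest and lowest of each complex by FPKM, and listed genes outside the naming rule. The fits were tested on simulated data. Promoter sequences were not used here.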

Additional observations from a re-analysis of the deposited data

Results flagged for a closer look

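In groups of 6 libraries, 3 values stood apart from the rest by Dixon's criterion, out of 76 groups of values examined, where chance alone gives about 1 in 20. ND-49 was at 204 CPM in noOA replicate 1, the highest of 6. SdhD was at 89.0 CPM in noOA replicate 2, the highest of 6, and COX7A at 245 CPM in noOA replicate 4, the lowest of 6.

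For 4 genes the difference between active and inactive derivative differed between chemotypes by edgeR. COX5A, a member, had a difference less negative by 0.31 log2 units for CT1 than for CT2 (adjusted p = 0.0347 by edgeR). Sdhaf4 differed by 1.39 between CT1 and CT2, by 0.72 between CT1 and CT3 and by 0.67 between CT3 and CT2. Cyt-c-p differed by 0.54 between CT1 and CT2 and by 0.47 between CT1 and CT3, and srl by -0.32 between CT1 and CT2 (adjusted p = 0.0181).

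Both ND-MNLL, a small subunit of complex I, and mtTFB1, a mitochondrial transcription factor, had 0 reads in the counts of all libraries but means of 186 and 53.6 FPKM. ND-MNLL is therefore not among the members. The cause was not tested.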

How the results depend on the processing

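The replicate numbers did not pair the libraries: deviations of libraries with the same number from their group means correlated between -0.12 and 0.10, and in 0 comparisons did every pair exceed 0.1. With the replicate number as a block, the count of members was within 1.5 times in 16 of 17 comparisons, with 1 in place of 3 for OA against noOA without DMSO, and the median moved beyond the spread in 1 of 13, to -0.19 for vehicle OA against vehicle noOA.

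Counts of members called rested on the settings. They are given here without the share of all genes called under each setting, so they describe the members only. For vehicle OA against vehicle noOA (3), DESeq2, all 3 limma fits and the length trend gave 0, and no filter gave 7. For OA against noOA without DMSO (3), library totals, the limma fits and the length trend gave 0 and DESeq2 gave 1. For inactive CT2 (1), RLE factors, library totals, DESeq2, all libraries, the limma fits and the length trend gave 0. For active CT3 (1), DESeq2, the limma fits and the length trend gave 0 and no filter 3. For active against inactive CT2 (1), the limma fits gave 0 and no filter 3. For active against inactive CT3 (0), no filter gave 3 and the length trend 1. For CT1 against CT2 (1), library totals, the limma fits and the length trend gave 0. With each library left out in turn the counts ran from 0 to 1 for vehicle OA against vehicle noOA, 0 to 6 for OA against noOA, 0 to 1 for active CT1 (1 without vehicle OA replicate 2), 0 to 1 for inactive CT2, 1 to 3 for active against inactive CT2, 0 to 0 for active CT3, 0 to 1 for active against inactive CT3 (1 without inactive CT3 replicate 1) and 0 to 2 for CT1 against CT2.

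Medians of the members moved mostly on FPKM, where libraries keep the authors' scale. For vehicle OA against vehicle noOA the median was -0.12 with all libraries, -0.21, -0.22 and -0.21 in the limma fits and -0.062 with the length trend. For OA against noOA the limma fits gave 0.10, 0.10 and 0.10, where all genes had 0.15. They gave 0.15, 0.15 and 0.15 for active CT1 (all genes 0.11), 0.14, 0.14 and 0.14 for active against inactive CT1 (all genes 0.12), 0.042, 0.042 and 0.042 for active CT2 and 0.019, 0.020 and 0.019 for active against inactive CT2 (all genes 0.11). They gave 0.058, 0.059 and 0.058 for active CT3, 0.20, 0.21 and 0.20 for vehicle noOA against noOA, and -0.089, -0.089 and -0.089 for vehicle OA against OA. With all libraries the median was -0.042 for active CT2 and 0.043 for active CT3, and the length trend gave 0.032 for active CT3. Leaving out libraries kept 79 of 80 medians within the spread, and that of active CT3 ran from 0.065 to 0.15. Signs turned for COX5A (0.085, 0.086 and 0.085) and COX7A (0.073, 0.074 and 0.073) in the limma fits of OA against noOA, and for mt:Cyt-b with active CT3 (0.046) with all libraries. Where a value moved, the cause was not tested. Single libraries with few reads limit the lowest members, Sdhaf3, UQCR-11 and ND-AGGG.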
